A study of Mus musculus with 8 samples.

Results

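Lactate dehydrogenase and the monocarboxylate transporters make, use, export and import lactate, and 4 of their genes were examined here: Ldha, Ldhb, Slc16a1 and Slc16a3. They were chosen by symbol: every probe set whose platform annotation carried 1 of these 4 symbols was taken, which gave 5 of the 35556 probe sets on the array and 4 of the 19938 genes tested. Ldhb had 2 probe sets, and each of the other genes had 1. Primary mouse embryonic fibroblasts, cells cultured from embryos, were profiled on Affymetrix microarrays. The groups were line B (MEF16) with tamoxifen, labelled as expressing the pyruvate kinase isoform PKM1; line B without tamoxifen, labelled as expressing PKM2; line A (MEF10) with tamoxifen, PKM1; and line A without tamoxifen, PKM2. Each group held 2 samples, 8 arrays in all. The labels name no recombinase, allele, strain, dose or length of treatment, and they do not say how many embryos a line came from. The study held no group that received tamoxifen without the exchange of isoforms, so effects of the drug and of the exchange cannot be told apart.

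Lactate dehydrogenase converts pyruvate, the product of pyruvate kinase, to lactate and back, and in doing so regenerates NAD+ for glycolysis. Ldha encodes the M subunit, which favours lactate formation and is abundant in glycolytic cells, and Ldhb encodes the H subunit, which favours the oxidation of lactate and is abundant in heart. Slc16a1 encodes MCT1, a proton-linked carrier of lactate and pyruvate in many tissues, and Slc16a3 encodes MCT4, which is known for lactate export from glycolytic cells. Myc and the hypoxia-inducible factor HIF-1 are known activators of Ldha, and HIF-1 is one of Slc16a3.

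The promoters of the dehydrogenase pair are shown because the Ldha promoter is a textbook example of HIF-1 and Myc regulation and the values of the pair differed in pattern. Both sequences are the 250 bases before a start annotated for the gene in RefSeq, build GRCm38, written 5′ to 3′ on the gene's own strand. Capitals mark ACGTG, a form of the hypoxia response core, on either strand (so CACGT too). The other form of that core, GCGTG, was counted on both strands and is not capitalised. The E-box CACGTG, the motif that Myc binds, contains ACGTG on both strands, and overlapping matches were counted as 1 place. The Ldha window is chr7:46845554-46845803 on the plus strand, upstream of the first of the 2 starts used here. That window lies inside the annotated span of the gene, which begins at 46842274. The bases before that position were not examined. The Ldhb window is chr6:142507958-142508207 on the minus strand.
Ldha: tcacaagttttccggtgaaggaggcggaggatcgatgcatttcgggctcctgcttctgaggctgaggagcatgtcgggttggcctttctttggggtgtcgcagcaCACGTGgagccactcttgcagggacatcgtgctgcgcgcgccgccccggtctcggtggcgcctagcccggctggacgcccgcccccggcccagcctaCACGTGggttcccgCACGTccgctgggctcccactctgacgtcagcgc
Ldhb: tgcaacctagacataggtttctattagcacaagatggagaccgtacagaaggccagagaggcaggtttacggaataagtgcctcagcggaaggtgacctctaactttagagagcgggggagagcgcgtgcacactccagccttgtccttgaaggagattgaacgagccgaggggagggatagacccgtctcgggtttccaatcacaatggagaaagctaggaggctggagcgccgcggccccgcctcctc
The Ldha window held 3 places with ACGTG, 2 of them within CACGTG, and the window before its second start held 0. The Ldhb window held 0 places with ACGTG. Of the transporters, Slc16a1 had 1 place, within CACGTG, in chr3:104638414-104638663, and Slc16a3 had 2, with 0 within CACGTG, in chr11:120948817-120949066. The Slc16a3 window also lies inside the annotated span of its gene, which begins at 120948484. Across 32851 mouse promoters of this length, 16.6% held ACGTG, 6.02% held CACGTG and 0.256% held ACGTG at 3 or more places. GCGTG, which 28.2% of promoters held, was at 1 place in the Ldhb window, 2 in that of Slc16a1, 0 in that of Slc16a3, and 0 and 1 in the windows of the first and second Ldha start. A match in these letters does not show that a factor binds there.

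Values are log2 expression, so a difference of 1 is a doubling, and each fold change is tamoxifen minus no tamoxifen or line B minus line A. A gene passed when its adjusted p in limma, over all 19938 genes, was under 0.05. Of 10 fibroblast markers, 9 or 10 lay above the median gene on each array, and of 9 epithelial and mammary markers 1 did. So did 3 of 4 adipocyte markers, 2 to 5 of 6 skeletal muscle markers and 1 or 2 of 8 macrophage and blood markers. Beside the median gene at 7.34, list means ranged over the arrays from 10.34 to 10.68 for fibroblast markers, 6.67 to 6.79 for epithelial and mammary, 7.47 to 7.95 for adipocyte, 7.39 to 7.76 for skeletal muscle and 6.47 to 7.16 for macrophage and blood markers. Probe sets of different genes are not on 1 scale, so these levels describe the arrays and do not settle the cell type. Some label fields speak of mammary tumours, while the titles speak of embryonic fibroblasts. Samples of 1 group correlated at 0.9894 in line B with tamoxifen, 0.9907 in line B without, 0.9974 in line A with and 0.9956 in line A without. Genes whose 2 samples lay more than 0.5 apart made up 6.17% of all genes in line B with tamoxifen and 4.62% in line B without, against 0.331% in line A with tamoxifen and 0.777% in line A without. The line B pairs therefore stood further apart, and each line B value below rests on such a pair. Whether the 2 samples of a group came from separate cultures is not in the labels, and the p-values cover only the spread seen here, possibly a technical one. In such bulk RNA, fewer cells of a type and less RNA per cell cannot be told apart.

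None of the 4 genes passed the test for tamoxifen. Over both lines 0 of 4 passed, where 1.32% of all genes did; in line A 0 of 4 passed, where 0.502% of all genes did; and in line B 0 of 4 passed, where 0.0201% did. At an unadjusted p under 0.05, 0 of the 4 genes stood out over both lines, 1 in line A (Ldhb) and 1 in line B (Slc16a1), where 9.85%, 8.1% and 4.82% of all genes did. Across both lines, the tamoxifen samples of each of the 4 genes overlapped the samples without tamoxifen, where 2.56% of all genes were separated with tamoxifen higher and 2.74% with it lower. Within line A, 3 of 4 genes had groups that did not overlap, Ldhb higher and Ldha and Slc16a3 lower with tamoxifen, where 21.3% of all genes were separated in the higher and 26.2% in the lower direction. Within line B, 2 of 4 did, Slc16a3 higher and Slc16a1 lower, where 12% and 12.9% of all genes were separated.

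**Figure D1:**
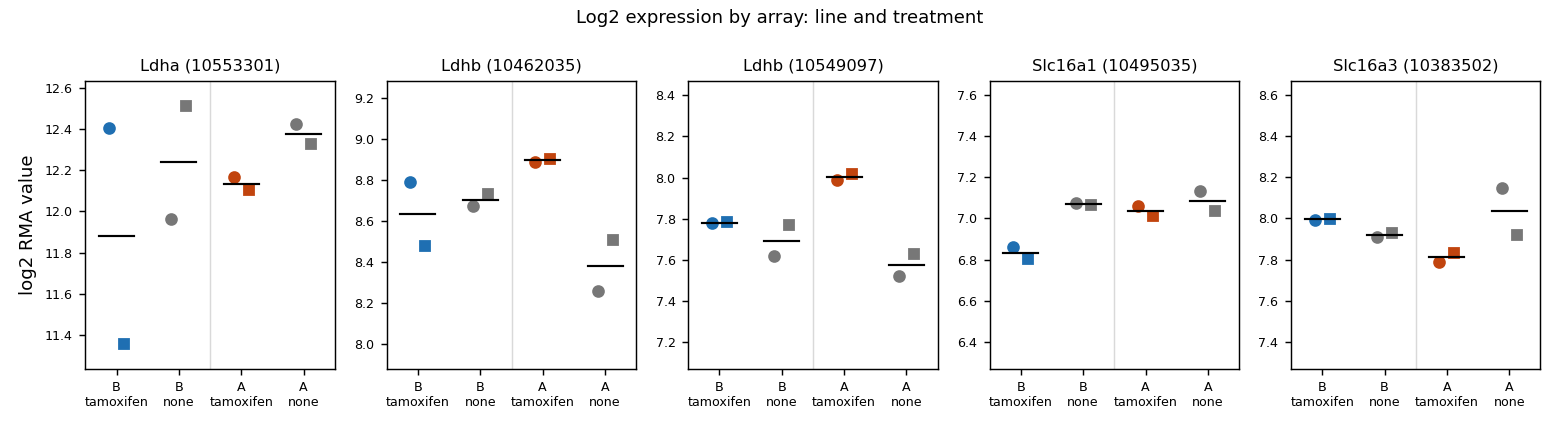
Log2 expression of each probe set of the 4 genes on each of the 8 arrays, by group, with circles for replicate 1, squares for replicate 2 and bars for the group mean; the axes differ between panels. The 2 Ldha samples of line B with tamoxifen lie at 12.41 and 11.36, while those of line A with tamoxifen lie at 12.17 and 12.10.

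Ldha, the gene of the lactate-forming M subunit, had 12.41 and 11.36 in line B with tamoxifen, against 11.97 and 12.51 in line B without. In line A it had 12.17 and 12.10 with tamoxifen, against 12.42 and 12.33 without. The line B groups overlapped, with the lowest of all 8 values in line B with tamoxifen and the highest in line B without, while both treated samples of line A lay below both untreated ones. The log2 fold change was -0.36 in line B (SE 0.30, 95% interval -1.03 to 0.32, adjusted p = 1.00) and -0.24 in line A (SE 0.30, 95% interval -0.91 to 0.43, adjusted p = 0.91). The SE was the same in both lines because the fit gave all groups a common spread. The line A interval therefore also carries the wide gaps within line B and is not that of line A alone. Over both lines the log2 fold change was -0.30 (SE 0.19, n = 8 samples, 95% interval -0.73 to 0.13, adjusted p = 0.71), a difference within the spread between samples. Without the second line B sample with tamoxifen it was -0.077, and 0.17 in line B; without the second line B sample without tamoxifen it was -0.18, and without the first line B sample with tamoxifen -0.50.

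The spread of Ldha within line B was wide even for these arrays. Its 2 samples lay 1.05 apart in line B with tamoxifen, a wider gap than in 99.6% of genes, and 0.55 apart in line B without, wider than in 96.7%. In line A the gaps were 0.06 with tamoxifen and 0.10 without, wider than in 41.7% and 46.3% of genes. A single axis, the first principal component of the deviations of all genes from their group means, carried 61.8% of the variance within groups, with line B scores of 0.49 and -0.49 with tamoxifen and -0.45 and 0.45 without. Of the within-group variance of Ldha, 88.3% lay on this axis, against 19.5% for Ldhb, 33.3% for Slc16a1 and 11.0% for Slc16a3. The axis averages out within each group, so as a covariate it could not move the Ldha value over both lines, -0.30. With it the SE was 0.083 and the adjusted p in limma 0.069, and 0 of 4 genes passed over both lines. The axis was computed from the same arrays, Ldha included, and follows their largest spread within groups. The smaller SE is therefore not independent evidence.

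Ldhb, the gene of the lactate-oxidising H subunit, was higher with tamoxifen in line A on both of its probe sets, and neither difference passed the test. Its brighter probe set, 10462035, had 8.89 and 8.90 in line A with tamoxifen, against 8.26 and 8.50 in line A without. In line B it had 8.79 and 8.48 with tamoxifen, against 8.67 and 8.73 without. The line A groups were separated and the line B groups overlapped. The log2 fold change in line A was 0.51 (SE 0.13, 1.43-fold, 95% interval 0.22 to 0.80, unadjusted p = 0.00334 and adjusted p = 0.19 in limma, higher in 2 of 2 samples). In line B it was -0.07 (SE 0.13, 95% interval -0.36 to 0.22, adjusted p = 1.00), and over both lines 0.22 (SE 0.12, 95% interval -0.05 to 0.50, adjusted p = 0.64). The value over both lines was 0.11 without the first line A sample without tamoxifen and 0.34 without the second line B sample with tamoxifen. The line A value passed with array weights (adjusted p = 0.022), with the leading axis as a covariate (0.037) and when only the 4 samples of line A were fitted (0.026), and its adjusted p lay between 0.088 and 1.00 when single arrays were left out.

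The second Ldhb probe set, 10549097, gave the same direction in line A. It had 7.99 and 8.02 in line A with tamoxifen, against 7.52 and 7.63 in line A without. Its line B values were 7.78 and 7.78 with tamoxifen, against 7.62 and 7.77 without, so its groups did not overlap in either line. The log2 fold change was 0.43 in line A (SE 0.10, 95% interval 0.21 to 0.65, adjusted p = 0.11 over the probe sets with 1 symbol) and 0.09 in line B. Over both lines it was 0.26 (SE 0.08, adjusted p = 0.27). The stretches of Ldhb that the 2 probe sets match were not analysed here.

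Whether tamoxifen acted unequally in the lines was tested as the difference of the effects, line B minus line A. For Ldhb this was -0.58 (SE 0.18, 95% interval -0.995 to -0.17, unadjusted p = 0.011, adjusted p = 1.00), for Slc16a3 0.30 (SE 0.14, adjusted p = 1.00), for Slc16a1 -0.19 (SE 0.13, adjusted p = 1.00) and for Ldha -0.12 (SE 0.42, adjusted p = 1.00). The limma test passed 0 of 4 genes for this difference, as it did 0% of all genes, and at an unadjusted p under 0.05 it marked 1 of 4 and 565 of all genes (2.83%). The second Ldhb probe set gave a difference of -0.34 (SE 0.14).

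**Figure D2:**
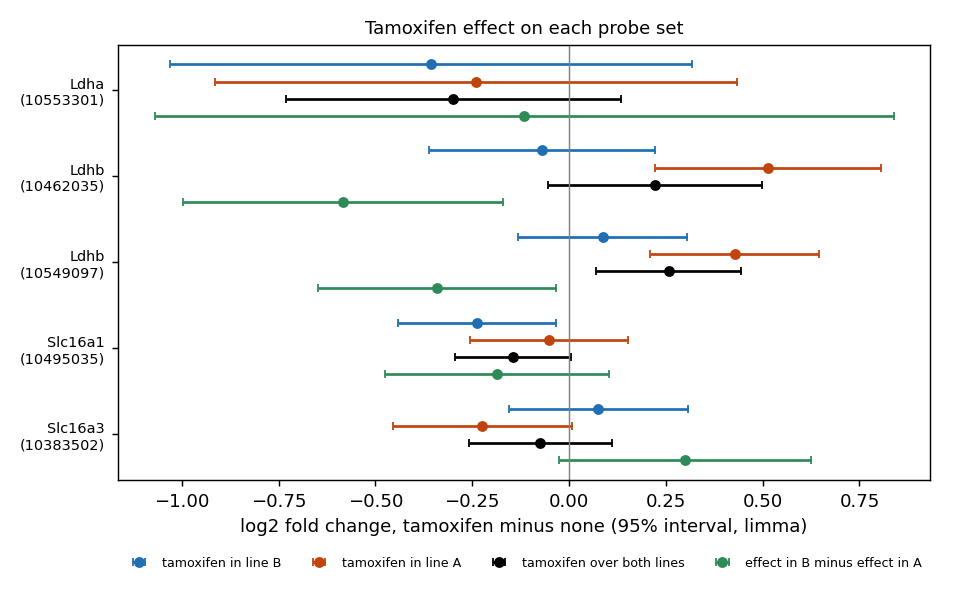
Log2 fold change with tamoxifen of the 4 genes in line B, in line A and over both lines, and the difference of the effect between lines, with 95% intervals from limma. The interval of Ldhb in line A runs from 0.22 to 0.80, and that of Ldha over both lines from -0.73 to 0.13; 0 of these values passed the adjusted test.

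The transporters had narrower ranges over the 8 arrays than the dehydrogenases, 0.33 for Slc16a1 and 0.36 for Slc16a3, against 1.16 for Ldha and 0.64 for Ldhb. Slc16a1, the gene of MCT1, had 6.86 and 6.80 in line B with tamoxifen, against 7.07 and 7.07 in line B without. In line A it had 7.06 and 7.01 with tamoxifen, against 7.14 and 7.04 without. Both treated samples of line B lay below all 6 other samples. The share of all genes with such a pattern was not counted. The mean of Slc16a1 over the 8 arrays was 7.01, below the median gene at 7.34. The log2 fold change was -0.24 in line B (SE 0.09, 95% interval -0.44 to -0.03, unadjusted p = 0.028, adjusted p = 0.90) and -0.05 in line A (SE 0.09, adjusted p = 0.94). Over both lines it was -0.14 (SE 0.07, 95% interval -0.29 to 0.01, adjusted p = 0.53). No detection calls were used, and RMA compresses differences of dim probe sets, which bears on values close to the array medians of 7.17 to 7.24.

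Slc16a3, the gene of MCT4, had group means that moved in opposite directions in the 2 lines, and neither difference passed the test. It had 7.99 and 8.00 in line B with tamoxifen, against 7.91 and 7.93 in line B without. In line A it had 7.79 and 7.83 with tamoxifen, against 8.15 and 7.92 without. The groups did not overlap in either line, higher with tamoxifen in line B and lower in line A. Of all genes, 3.6% were separated in both lines in opposite directions. The log2 fold change was 0.08 in line B (SE 0.10, adjusted p = 1.00) and -0.22 in line A (SE 0.10, 95% interval -0.45 to 0.01, unadjusted p = 0.056, adjusted p = 0.63). The line A value was -0.11 without the first and -0.34 without the second line A sample without tamoxifen. Over both lines it was -0.07 (SE 0.08, adjusted p = 0.85), and without the first line A sample without tamoxifen the values of the lines cancelled to 0.0017.

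The balance of the dehydrogenase genes was followed within each array as Ldha minus Ldhb, a log2 difference whose level has no meaning but whose shift shows unequal movement of the 2 genes. It was 3.62 and 2.88 in line B with tamoxifen, against 3.29 and 3.78 in line B without. In line A it was 3.28 and 3.20 with tamoxifen, against 4.17 and 3.82 without. The line A groups were separated and the line B groups overlapped. The shift with tamoxifen was -0.29 in line B and -0.75 in line A, and -0.52 over both lines, with an exact permutation p of 0.11 (two-sided, 36 arrangements within lines, n = 8 samples). The smallest p this design allows is 0.056. For Slc16a1 minus Slc16a3 the shift was -0.31 in line B and 0.17 in line A, and -0.07 over both lines (exact permutation p = 0.56).

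The order of the 4 group means differed from gene to gene. For Ldha, line A without tamoxifen was highest, followed by line B without, line A with and line B with tamoxifen, and no 2 neighbours in this order were separated. For the brighter Ldhb probe set, line A with tamoxifen stood above line B without, line B with and line A without, and only the first of these groups was separated from its neighbour. On the second Ldhb probe set, line B with tamoxifen (7.78) stood above line B without (7.69). For Slc16a1 the order was line A without, line B without, line A with and line B with tamoxifen: the first pair overlapped, line B without and line A with tamoxifen were apart by 0.01, and line B with tamoxifen lay apart. For Slc16a3 it was line A without, line B with, line B without and line A with tamoxifen, and only the first pair overlapped.

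Between the lines, none of the 4 genes passed. Over both treatments 0 of 4 passed, where 1.47% of all genes did; with tamoxifen 0 of 4, where 0.532% did; and without tamoxifen 0 of 4, where 0.326% did. At an unadjusted p under 0.05 the counts were 0, 0 and 1, where 8.15%, 6.72% and 5.2% of all genes were below it. The lines were separated over both treatments for 0 of 4 genes, where 2.96% of all genes were separated with line B higher and 1.93% with it lower. With tamoxifen 3 of 4 were separated, Slc16a3 higher and Ldhb and Slc16a1 lower in line B, where 22.4% and 15.3% of all genes were, and without tamoxifen 1 of 4, Ldhb, higher in line B, where 17% and 11.7% were. The gene below an unadjusted 0.05 was Ldhb, at 8.70 ± 0.04 in line B and 8.38 ± 0.17 in line A without tamoxifen (SD, n = 2 each), a difference of 0.32 (SE 0.13, adjusted p = 0.86). With tamoxifen it was at 8.63 ± 0.22 in line B and 8.89 ± 0.01 in line A (SD, n = 2 each), a difference of -0.26 (SE 0.13, adjusted p = 0.81). These are values of the brighter Ldhb probe set. The second gave 0.12 (SE 0.10) without tamoxifen, where its lines overlapped, and -0.22 (SE 0.10) with tamoxifen, where they did not. Slc16a1 was at 6.83 ± 0.04 in line B and 7.04 ± 0.03 in line A with tamoxifen (SD, n = 2 each), a difference of -0.20 (SE 0.09, adjusted p = 0.75).

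Genes with the most similar values over the 8 samples were ranked by Pearson's r among 2134 genes above the median gene with an SD of at least 0.2 (2135 for the transporters); these samples share lines and arrays, and the coefficients are descriptions. Ldha was followed most closely by Rplp1, a protein of the ribosome's stalk (r = 0.98), Arhgef25, a guanine nucleotide exchange factor (0.98), and Notch2, a receptor of the Notch pathway (0.98). Within groups, after the group means were removed, these 3 coefficients were 0.99, 0.99 and 0.97. Rplp1 had 11.84 and 11.09 in line B with tamoxifen, against 11.53 and 12.10 in line B without, and the same samples as for Ldha were the lowest and the highest. For Ldhb the closest were Mertk, a receptor tyrosine kinase (0.95), Atp6v1f, a subunit of the vacuolar proton pump (0.94), and Trappc2l, a vesicle tethering factor (0.93). For Slc16a1 they were Itih2 (0.92), Palmd (0.91) and Il6st, the shared receptor subunit of the interleukin-6 family (0.91). For Slc16a3 they were lower, with Defb46, a defensin (0.84), Rara, a retinoic acid receptor (0.78), and Itga3, an integrin subunit (0.74). Within groups the coefficients were 0.85, 0.93 and 0.96 for the genes most like Ldhb, in the order named. They were 0.26, 0.51 and 0.81 for those of Slc16a1, and 0.68, 0.55 and 0.66 for those of Slc16a3.

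**Figure D3:**
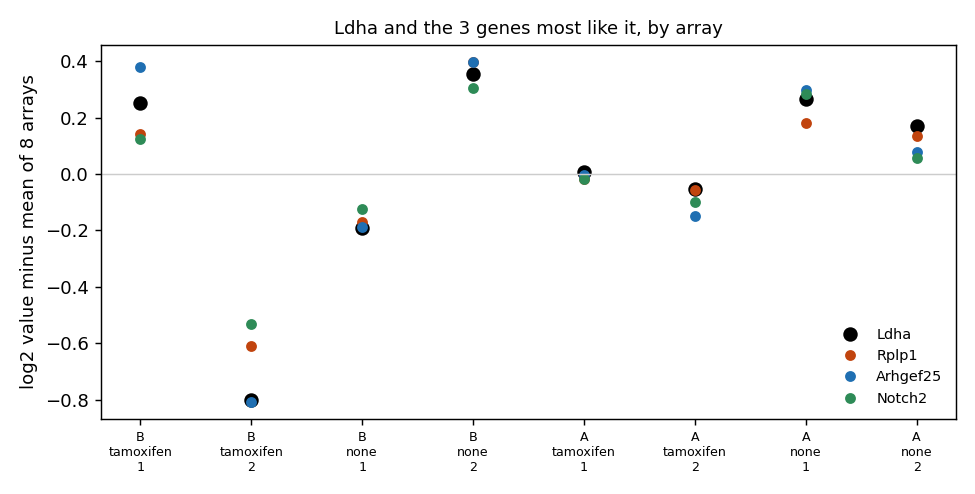
Log2 expression of Ldha and of the 3 genes with the highest Pearson's r to it on each of the 8 arrays, each gene minus its own mean over the arrays; the number under each array is the replicate. All 4 genes are lowest in the second sample of line B with tamoxifen, at 11.36 for Ldha.

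The other genes of lactate and pyruvate handling were taken from 10 lists that hold 68 measured genes besides these 4. Of the 68, 0 rose and 0 fell with tamoxifen in limma over both lines, in line A or in line B, and 9, 7 and 5 of them (13.2%, 10.3% and 7.35%) were below an unadjusted p of 0.05, where 9.85%, 8.1% and 4.82% of all genes were. Their median log2 fold change was -0.02 over both lines, -0.02 in line A and -0.04 in line B, beside medians over all genes of -0.01, -0.02 and -0.01. In the lactate dehydrogenase family, 0 of 6 passed. Ldhc, the testis isozyme gene, had the smallest p, with 0.20 over both lines (SE 0.10, adjusted p = 0.59 in limma). Its values, 5.52 to 6.08, lay below the median gene at 7.34. Of 13 monocarboxylate transporters 0 passed; Slc16a7, which encodes MCT2, a carrier with high affinity for pyruvate, had -0.33 (SE 0.10, adjusted p = 0.21) and Slc16a9 0.18 (SE 0.07, adjusted p = 0.36). Of the 5 partners and sodium-coupled carriers 0 passed. Slc5a12, a sodium-coupled lactate carrier, had 0.26 (SE 0.08), Nptn, the chaperone neuroplastin, 0.09 (SE 0.06), and Bsg, the basigin chaperone of MCT1 and MCT4, -0.01. The Slc5a12 values, 6.48 to 6.97, also lay below the median gene.

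The nearest to the threshold was Pdk4, a kinase that inhibits pyruvate dehydrogenase. It had 8.75 and 8.73 in line B with tamoxifen, against 8.58 and 8.35 without, and 9.13 and 9.16 in line A with tamoxifen, against 8.72 and 8.73 without. Both treated samples lay above both untreated ones in each line, where 12% of all genes were so separated in line B and 21.3% in line A. The share separated upward in both lines at once was not counted. The log2 fold change over both lines was 0.34 (SE 0.07, higher in 4 of 4 samples within their lines, adjusted p = 0.0504), and its adjusted p lay between 0.0024 and 0.40 under the alternatives. Other genes around pyruvate did not pass: Pdpr, a regulator of the pyruvate dehydrogenase phosphatase, had 0.17 (SE 0.07), Mpc1 of the mitochondrial pyruvate carrier 0.19 (SE 0.14), the alanine aminotransferases Gpt and Gpt2 -0.12 (SE 0.06) and -0.07 (SE 0.09), and the shuttle genes Slc25a13 and Gpd2 -0.17 (SE 0.07) and -0.06 (SE 0.07). All values of Gpt and Gpt2 lay below the median gene at 7.34.

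Among 6 known regulators of these genes, 0 passed. Myc had -0.20 over both lines (SE 0.09, adjusted p = 0.47), with -0.02 in line B and -0.37 in line A (SE 0.10, adjusted p = 0.21), and Hif1a had 0.13 (SE 0.07, adjusted p = 0.62). Of 14 other hypoxia-induced genes 0 passed, with a median of -0.06; Bnip3, a mitophagy receptor, had 0.25 (SE 0.09, adjusted p = 0.35) and Adm, the adrenomedullin gene, -0.20 (SE 0.08, adjusted p = 0.36). Of the lactate sensors, Ndrg3 had 0.10 (SE 0.07) and the lactate receptor gene Hcar1 -0.10 (SE 0.08). The Hcar1 values, 6.25 to 6.63, lay below the median gene at 7.34. Markers of other kinds moved beside these values. Of 5 cell cycle genes 2 fell over both lines, where 102 of 19938 genes did, Mki67 by 0.70 on the log2 scale (SE 0.09, adjusted p = 0.0059) and Ccna2 by 0.67 (SE 0.09, adjusted p = 0.0073). Of 10 fibroblast markers 2 rose over both lines, where 161 of 19938 genes did, Lum by 1.33 (SE 0.17, adjusted p = 0.0047) and Dcn by 0.88 (SE 0.15, adjusted p = 0.021). The list as a whole did not rise: 3 of its 10 genes had a positive log2 fold change. Its median was -0.02 and its lowest value -0.45. The mean of the 5 cell cycle genes lay between 10.22 and 10.40 in line B with tamoxifen, against 10.55 to 10.68 without, and between 10.13 and 10.15 in line A with tamoxifen, against 10.65 to 10.71 without. Their part in the values of the 4 genes was not tested.

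**Figure D4:**
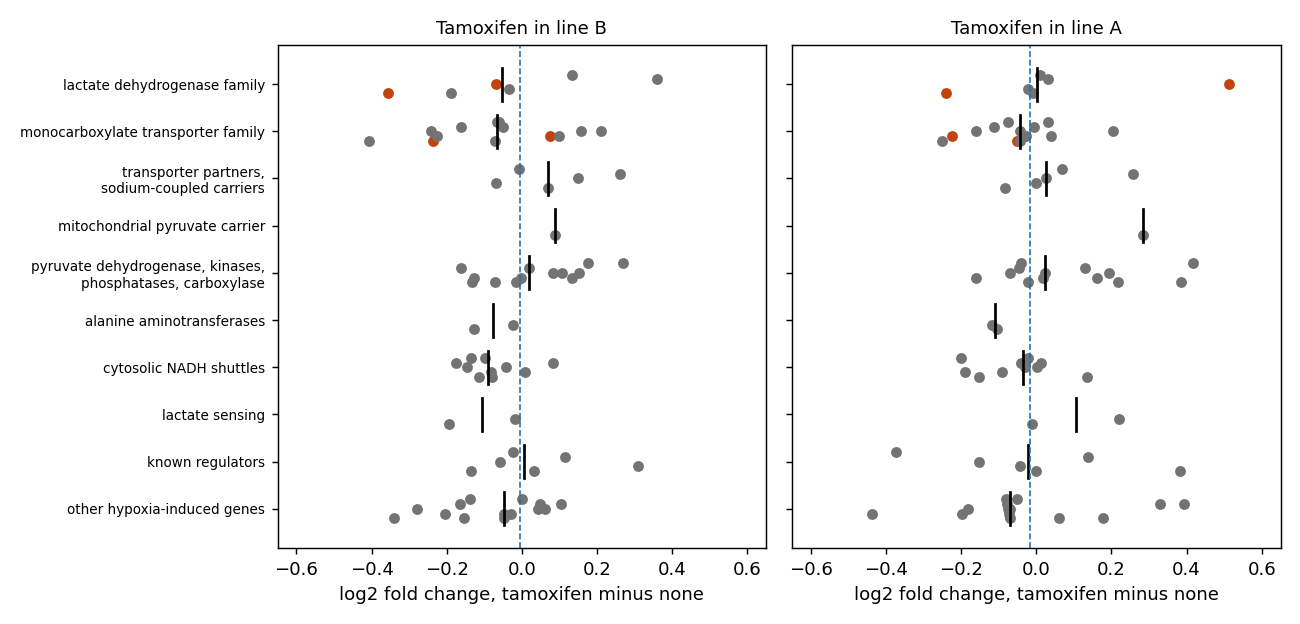
Log2 fold change with tamoxifen of every measured gene of the 10 lists, in line B and in line A, with the 4 genes in orange, the others in grey, the median of each list as a black bar and the median of all genes as a blue dashed line. The values lie around the median of all genes, and Ldhb in line A is at 0.51.

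Between the lines, 3 of the 68 genes passed over both treatments, all lower in line B (4.41%, where 1.47% of all genes passed). With tamoxifen alone 2 of the 3 passed (2.94%, where 0.532% of all genes did), and without tamoxifen 0 (where 0.326% did). Slc16a7 had 7.30 and 7.47 in line B with tamoxifen, against 7.98 and 8.01 in line A with tamoxifen, and 7.94 and 7.65 in line B without, against 8.08 and 8.42 in line A without. All 4 line B samples lay below all 4 line A samples, where 1.93% of all genes were so separated. How many of the 68 genes were so separated was not counted. The Slc16a7 difference over both treatments was -0.53 (SE 0.10, adjusted p = 0.025 in limma). Pdp1, a phosphatase that activates pyruvate dehydrogenase, had 8.48 and 8.63 in line B with tamoxifen, against 9.36 and 9.43 in line A with tamoxifen. Without tamoxifen it had 8.69 and 8.68 in line B, against 8.89 and 9.14 in line A, and here too the lines did not overlap. The difference was -0.58 over both treatments (SE 0.11, adjusted p = 0.028) and -0.84 with tamoxifen (SE 0.11, adjusted p = 0.019). Adm, which encodes a vasodilator peptide, had 9.12 and 9.02 in line B with tamoxifen, against 9.69 and 9.58 in line A with tamoxifen, and 9.37 and 9.44 in line B without, against 9.67 and 9.74 in line A without. Its lines did not overlap either, with a difference of -0.43 over both treatments (SE 0.08, adjusted p = 0.021) and of -0.57 with tamoxifen (SE 0.09, adjusted p = 0.044).

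Whether these line differences passed the test depended on single arrays, while their sizes moved less. Leaving out 1 array at a time, the difference over both treatments lay between -0.62 and -0.48 for Slc16a7 (adjusted p 0.014 to 0.12 in limma). It lay between -0.68 and -0.50 for Pdp1 (0.013 to 0.15) and between -0.47 and -0.38 for Adm (0.030 to 0.11). Its sign was fixed in advance, because the lines did not overlap for these genes. The call was lost for each of the 3 genes without any of these arrays: the second line A sample without tamoxifen, either line A sample with tamoxifen, or the second line B sample with tamoxifen. It was also lost without the first line B sample with tamoxifen for Slc16a7 and Pdp1, and without the second line B sample without tamoxifen for Slc16a7. With tamoxifen alone, Pdp1 lost its call without any 1 of the 4 tamoxifen arrays (-0.91 to -0.77 over the fits, adjusted p 0.028 to 0.28), and Adm lost it without any 1 array (-0.62 to -0.52, adjusted p 0.059 to 0.54). Markers of macrophages and blood moved with the line as well: their mean over 8 genes lay between 7.14 and 7.16 in line B with tamoxifen and 6.96 and 7.02 in line B without, against 6.57 to 6.63 in line A with tamoxifen and 6.47 to 6.56 in line A without. Of the 8 genes 2 were higher in line B over both treatments, Lyz2 by 1.83 (SE 0.16, adjusted p = 0.00033) and Adgre1 by 0.59 (SE 0.07, adjusted p = 0.0021), and Ptprc, the pan-leukocyte marker, had 0.51 (SE 0.13, adjusted p = 0.13). All values of Adgre1 (5.45 to 6.34) and Ptprc (6.14 to 7.33) lay below the median gene at 7.34. Of 10 fibroblast markers, Lum was lower in line B (-1.58, SE 0.17, adjusted p = 0.0012) and Thy1 higher (0.57, SE 0.07, adjusted p = 0.0017). Of 4 adipocyte markers 1 was lower, Fabp4 (-0.53, SE 0.11, adjusted p = 0.037), and of 6 skeletal muscle markers 1 was higher, Acta1 (0.60, SE 0.13, adjusted p = 0.046). The part of these markers in the line differences was not tested.

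**Figure D5:**
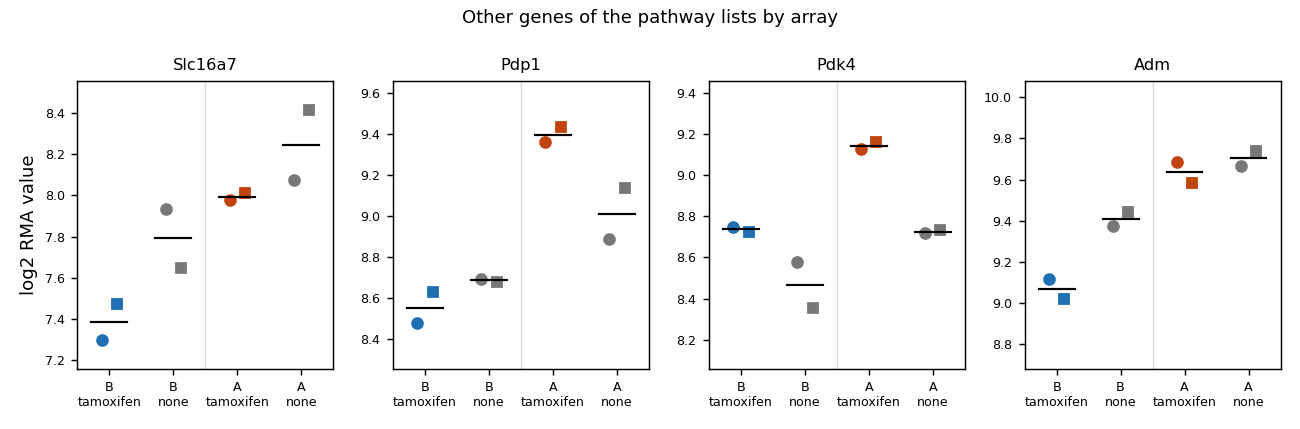
Log2 expression of Slc16a7, Pdp1, Pdk4 and Adm on each of the 8 arrays, with circles for replicate 1, squares for replicate 2 and bars for group means. The line B values of Slc16a7, 7.30 to 7.94, lie below those of line A, 7.98 to 8.42.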

How the data were processed

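RNA of 8 samples was measured on Affymetrix mouse arrays. The authors ran RMA in Expression Console, per the labels, and the deposited log2 values were used without further normalization. No genome build for the probes was given in the sources used here. Titles set the groups; replicate numbers follow sample order and pair nothing. Platform annotation gave 1 symbol for 21789 probe sets, several for 1621 and none here for 12146. A gene was represented by its probe set with the highest mean, and every probe set of the 4 genes was also tested.

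Tests used limma 3.58.1 in R 4.3.3 (lmFit, eBayes), with Benjamini-Hochberg adjustment over 19938 genes and a pass mark of 0.05. Comparisons over both lines or both treatments used line and tamoxifen as terms (5 residual degrees of freedom), and all others used 4 group means (4 residual degrees of freedom). For each gene these fits took the spread as common to all groups. An SE or interval given for line A therefore also holds the spread within line B, and the reverse. The fits were tested on simulated data. Array medians differed by 0.07 at most. Promoters are from RefSeq, GRCm38.p6, with all 4 genes matched by symbol.

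The genes and lists were chosen with earlier results of these data known. Named were the 4 genes, every list gene that passed in any comparison, the 2 with the smallest p of each list for tamoxifen over both lines and the 3 genes most like each of the 4; Bsg and the cell type and cell cycle markers were named after their values were seen. Gapdh, Eno1 and Mpc2 were not analysed here.

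Alternatives were a common median, quantile normalization again, omission of the 30% dimmest genes, array weights, trended and robust eBayes, averaged probe sets of a gene, the leading within-group axis as a covariate, no line term, each line alone and each sample left out.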

Additional observations from a re-analysis of the deposited data

Results flagged for a closer look

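Slc16a3 stood out because its samples with tamoxifen all lay above those without in line B and all below them in line A: the effect was 0.08 in line B and -0.22 in line A, a difference of 0.30 (SE 0.14, unadjusted p = 0.068, adjusted p = 1.00 in limma). Pdp1 stood out in the same way with the directions exchanged, with -0.13 in line B and 0.38 in line A, a difference of -0.52 (SE 0.16, unadjusted p = 0.0097, adjusted p = 1.00 in limma). Of all genes, 717 (3.6%) were separated in both lines in opposite directions.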

How the results depend on the processing

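No paired analysis was possible because the labels give each array its own number and share none between groups. Of 432 recomputed values of the 4 genes, 414 kept their direction and their side of the threshold, 3 passed it in the same direction and 15 changed sign. The causes were not tested. For some of these values the direction was fixed in advance. Trended and robust eBayes, omission of the dimmest genes, no line term and the leading axis cannot move a fold change, only its adjusted p. The same holds for fitting each line alone. It also holds for leaving out an array that a comparison of group means does not use. Averaging probe sets cannot move it for a gene with 1 probe set. Counts of the 4 genes passing were 0 under each setting given here except for tamoxifen in line A, where 1 gene, Ldhb, passed with array weights, with the leading axis as a covariate and in line A alone. Of the 5 probe sets, 1 (Ldhb 10549097, 0.32 over both lines) passed with array weights. Of the 68 list genes, 1 (Pdk4) passed over both lines after quantile normalization, without the dimmest genes and with the mean of probe sets, 2 (with Slc16a7) with the leading axis and 4 (also Bnip3 and Myc) with array weights; leaving out 1 array gave 0 to 1, with Pdk4 passing without the first line B sample without tamoxifen. With the mean of its probe sets, Ldhb had 0.0087 for tamoxifen in line B and -0.012 for line B minus line A over both treatments.

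Leaving out 1 array gave sign changes in these ranges. For tamoxifen, Slc16a3 over both lines lay between -0.11 and 0.0017, Ldha in line B between -0.88 and 0.17, and Ldhb in line B between -0.23 and 0.087. The difference of the effect of Ldha lay between -0.64 and 0.41. For line B minus line A, Ldha lay between -0.78 and 0.27 with tamoxifen, -0.41 and 0.14 without and -0.39 and 0.028 over both; Ldhb over both between -0.078 and 0.15; Slc16a1 without tamoxifen between -0.065 and 0.033; and Slc16a3 over both between -0.0038 and 0.11. Counts of all genes passing were 263 (58 to 996 over all alternatives) for both lines, 100 (0 to 736) in line A, 4 (0 to 142) in line B and 0 (0 to 0) for their difference; between lines they were 293 (116 to 731), 106 (0 to 463) with and 65 (4 to 292) without tamoxifen. Fits without the line B arrays at either end of the leading axis were also run and then dropped, since they choose samples by measured values that include Ldha; Ldhb passed in line A in both, and without the high-end arrays Ldha passed between the lines with tamoxifen and over both treatments. With 2 arrays a group, their number limits the precision, and dim probe sets understate a difference.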
